A study of Mus musculus with 2 samples.

Results

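The interferon-responding progenitors were 60 stromal cells of mouse gonadal white adipose tissue (gWAT), taken from 7723 cells in a progenitor gate and 17404 barcodes in all. They were the cells with the highest score for Rsad2, Ifit1, Ifit3 and Mx1, so they were selected on the levels of these 4 genes, which are given as a description. The score was the mean over the 4 genes of ln(1 + UMIs per 10000), where a UMI (unique molecular identifier) counts 1 captured transcript. The gate held cells with more than 1000 and fewer than 7000 detected genes and under 8% of mitochondrial UMIs. It left out cells with 5 or more UMIs of the mesothelial genes Msln, Upk3b, Krt19, Lrrn4 and Upk1b, with 1% or more of their UMIs from immunoglobulin genes, or with 3 or more UMIs of Calca and Ncam1. Of the 60 members, 22 came from the 3091 gate cells of the Tom+ library and 38 from the 4632 gate cells of the Tom- library.

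The CD31- CD45- cells were sorted from 18-month-old male p16-CreERT2/R26-LSL-tdTomato mice, and 1 droplet library was made of the cells with the tdTomato reporter (Tom+) and 1 of those without it (Tom-). In these mice tamoxifen frees a Cre recombinase made from the p16 (Cdkn2a) locus to remove a stop sequence before tdTomato, so cells of both sorts carried both alleles and came from tamoxifen-treated animals. How many mice entered each library is not named in the sources used here. With 1 library per sort no difference was tested, and a difference between the sorts cannot be told apart from one between the preparations.

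The Tom+ members held 354629 UMIs and the Tom- members 433185, against 44856404 and 54068544 in the rest of the gate. Levels are given as counts per 1000000 UMIs (CPM), and 1 UMI over the members stood for 2.82 CPM in Tom+ and 2.31 CPM in Tom-. Each ratio compares members with the rest of the gate of the same library, and its 95% interval is exact and covers counting error only. The 2 libraries shared 2224 barcodes, 3 members had a barcode that was also listed in the other library, and no barcode was a member in both. The members were as deep as the rest, with a median of 14831 UMIs per cell in Tom+ (rest 14023) and 11363 in Tom- (rest 11235.5).

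Type I interferons bind the receptor chains Ifnar1 and Ifnar2, which act through Jak1 and Tyk2. Stat2 and Irf9 belong to the complex that binds the interferon-stimulated response element in the promoters of antiviral genes. Type II interferon acts through Ifngr1 and Ifngr2 and is known for the induction of guanylate-binding proteins, Cxcl9 and MHC class II. Rsad2 (viperin) makes an antiviral nucleotide, Ifit1 and Ifit3 act against foreign RNA, and Mx1 is an antiviral dynamin-like GTPase that is disrupted in many laboratory mouse strains.

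The response element was searched as GAAANNGAAA and its reverse complement TTTCNNTTTC in the 250 bases before each RefSeq start site (GRCm38.p6). Of the 3 selecting genes with a sequence, Rsad2, Ifit1 and Ifit3, all 3 held at least 1 copy, against 978 of 32851 windows (2.98%). Of the 78 type I response genes measured below, 63 had a sequence and 21 of these held a copy (33.3%). Of the 14 guanylate-binding protein and immunity-related GTPase genes measured below, 9 had a sequence and 8 of these held a copy (88.9%). Among 2319 genes with a sequence and a mean of at least 50 CPM, 95 held a copy (4.10%). In these sets a gene counts if any of its windows held a copy, whereas the 2.98% is per window. The following stretches lie before the start site, are written 5′ to 3′ on the gene's strand and carry the matched copies in capitals. They are shown because Rsad2, Ifit1 and Ifit3 selected the cells and as examples of 2 abundant genes with a copy, Isg15 and Cxcl10. The windows of Cmpk2, Oasl2 and Irf7, also described below, held none.
Rsad2 (chr12:26456533-26456602, minus strand): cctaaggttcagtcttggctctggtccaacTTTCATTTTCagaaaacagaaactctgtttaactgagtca
Ifit1 (chr19:34640755-34640843, plus strand): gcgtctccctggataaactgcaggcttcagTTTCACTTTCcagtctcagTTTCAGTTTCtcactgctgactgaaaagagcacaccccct
Ifit3 (chr19:34583343-34583446, plus strand): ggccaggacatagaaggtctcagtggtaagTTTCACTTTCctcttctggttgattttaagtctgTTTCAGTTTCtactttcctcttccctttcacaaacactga
Isg15 (chr4:156200845-156200926, minus strand): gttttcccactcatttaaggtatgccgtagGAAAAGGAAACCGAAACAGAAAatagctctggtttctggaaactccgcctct
Cxcl10 (chr5:92349063-92349132, minus strand): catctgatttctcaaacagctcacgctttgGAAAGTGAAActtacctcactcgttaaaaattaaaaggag
The Isg15 stretch held 3 overlapping copies and those of Ifit1 and Ifit3 held 2 each. The stretch shown for Ifit3 is the same, base for base, before Ifit3b, a near-identical neighbour on chromosome 19, and 3′ reads of the 2 genes may be split between them. A match is a description of the letters, not of bound protein.

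The score ran without a gap from the lowest members to the cells outside. The highest score was 3.74, the median member had 1.19, the members at ranks 59 and 60 had 0.759 and 0.741, and the next cells outside had 0.740 and 0.733. Score was 0 in 6404 gate cells (82.9%). All 60 members carried UMIs of at least 2 of the 4 genes, 33 of 3 genes and 15 of all 4. In the rest of the gate 158 cells had 2 or more of the genes and none had all 4.

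**Figure D1:**
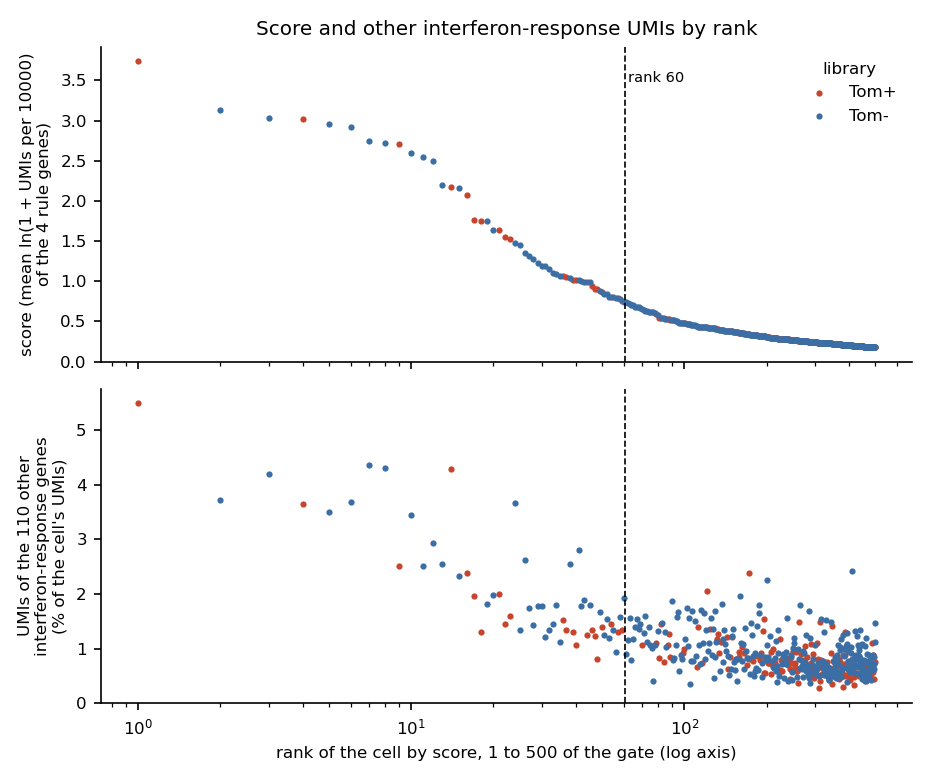
Cells of the gate by rank of score (log axis, ranks 1 to 500), with the score above and below it the share of each cell's UMIs from 110 interferon-response genes outside the 4 rule genes; red points are Tom+ and blue points Tom-. The score runs on smoothly through rank 60 (dashed line), and the other interferon-response genes take up to 5.49% of a member's UMIs.

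Of the selecting genes, Ifit1 (chr19:34640871-34650009) was the most abundant. Its level was 1661 CPM in members from Tom+ and 1676 CPM in those from Tom-, against 6.58 and 8.49 CPM in the rest, and was found in 60 of 60 members. Rsad2 (chr12:26442746-26456452) stood at 840 and 801 CPM against 3.50 and 2.48 CPM and was found in 49 members. Ifit3 (chr19:34583531-34588731) stood at 933 and 1260 CPM against 7.31 and 9.36 CPM, in 58 members. Mx1 (chr16:97447035-97462907) was scarce throughout, at 95.9 and 53.1 CPM against 0.178 and 0.166 CPM, with 57 UMIs in 16 members. The single highest cell of the gate, a Tom+ cell of 9686 UMIs, held 152 UMIs of Rsad2, 82 of Ifit1, 17 of Ifit3 and 11 of Mx1.

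These few cells held most of the gate's UMIs of the selecting genes. Although the members held 0.790% of all gate UMIs, they held 65.5% of the Rsad2 UMIs in Tom+ (60.9 to 69.9%) and 72.1% in Tom- (67.9 to 76.1%). For Isg15, which did not select them, the share was 34.8% in Tom+ (31.8 to 38.0%) and 24.9% in Tom- (22.96 to 26.99%), and for Cxcl10 14.04 and 13.77%. Over the whole gate Isg15 had a level of 20.7 CPM in Tom+ and 33.4 CPM in Tom-, and without the members at 13.6 and 25.3 CPM.

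When the score was rebuilt on 3 of the 4 genes, the 60 highest cells shared 51 to 59 cells with the members. The gene left out was also high in these cells. As the 4 genes were chosen together, with earlier results of these data known, this is a description and not a test. Rsad2 stood at 797 CPM in the 60 cells chosen without it, against 3.09 CPM in the rest, and had a UMI in 43 of them. Ifit1 stood at 1541 against 8.76 CPM, in 54 cells. Ifit3 stood at 1032 against 9.09 CPM, in 49 cells, and Mx1 at 71.1 against 0.182 CPM, in 15 cells.

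Beyond the selecting genes, the members summed together carried a broad antiviral programme in both libraries. Of the 92 type I response genes listed, 78 had a mean of at least 5 CPM over members and rest, and 62 of these were at least 2-fold higher in both libraries and none 2-fold lower. Their median log2 ratio was 2.23 (2.05 in Tom+ and 2.34 in Tom-), beside a median of -0.03 over all 9704 genes of that level. Over all of these genes 1.88% were at least 2-fold higher in both libraries and 1.58% at least 2-fold lower. The comparison is the one that chose the cells, and 11 of the 78 genes passed the 5 CPM limit only through their level in the members. The median member had UMIs of 55.5 of 110 further interferon-response genes (range 12 to 80), and the median cell of the rest had 24. At 7181 UMIs per cell, which left out 4 members and 769 other cells, the medians were 43 and 18 genes. The share of a cell's UMIs from the 110 genes was over the rest's median in all 60 members. It was over the rest's 99th percentile (1.44%) in 40 of them.

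**Figure D2:**
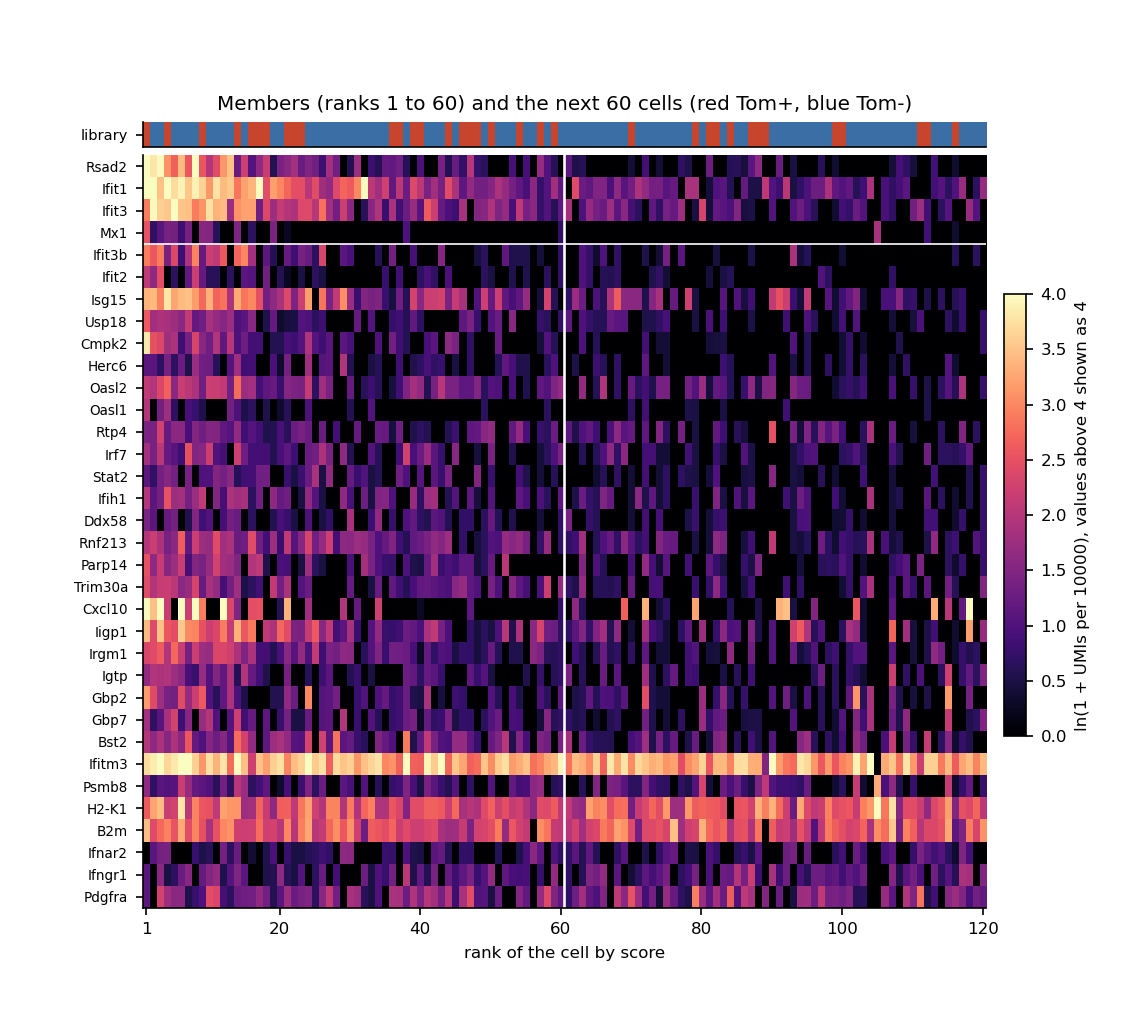
Heat map of ln(1 + UMIs per 10000) for 34 genes (rows) in the 60 members (left of the white line) and the next 60 cells of the gate (right), ordered by score, with the library above. Isg15, Oasl2, Rnf213 and Iigp1 were found in most members, Cxcl10 in 22 of them, and Ifitm3, H2-K1, B2m and Pdgfra run on across the line.

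Isg15, a ubiquitin-like protein joined to other proteins in infected cells, had, after Ifit3b, the largest ratio among genes of at least 50 CPM outside the rule. Its level was 919 CPM in members from Tom+ and 1048 CPM in those from Tom-, against 13.6 and 25.3 CPM in the rest, a log2 ratio of 5.63 (5.51 to 5.75), and was found in 56 members. Among the genes of its conjugation pathway 5 of 6 were at least 2-fold higher in both libraries. Usp18, the protease that removes Isg15 and restrains receptor signalling, stood at 189 and 185 CPM against 6.06 and 7.05 CPM (log2 4.82, 4.55 to 5.08). Herc6, the mouse Isg15 ligase, had a log2 ratio of 3.67, Trim25 of 2.48 and the conjugating enzyme Ube2l6 of 2.08. Uba7, which activates Isg15, had 16 UMIs and a log2 ratio of 1.18 (0.37 to 1.89), under the fold limit in Tom-.

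In the Ifit family, Ifit3b had a level of 240 and 374 CPM against 1.89 and 2.11 CPM (log2 7.28), with reads possibly shared with Ifit3 as given above. Ifit2, which has a distinct sequence, was far lower, at 87.4 and 104 CPM against 22.3 and 16.1 CPM (log2 2.35, 1.999 to 2.68), and was found in 30 members. Of the oligoadenylate synthetase genes, which include sensors of double-stranded RNA, Oasl2 led with 392 and 342 CPM against 18.6 and 20.6 CPM (log2 4.21). Oasl1, which restrains Irf7 translation, rested on 44 UMIs in 19 members (log2 6.37, 5.78 to 6.94). All 4 measured genes of this family were at least 2-fold higher in both libraries, but 3 of them, Oasl1, Oas2 and Oas1a, passed the 5 CPM limit only through the members.

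Cmpk2, a mitochondrial nucleotide kinase whose gene is the neighbour of Rsad2 on chromosome 12, stood at 259 and 231 CPM against 7.07 and 6.21 CPM (log2 5.21). The highest member held 43 of its 192 UMIs, and without that cell the log2 ratio was 4.86. Among 51 measured antiviral effectors 41 were at least 2-fold higher in both libraries, beside 1.88% of all genes. Of the 51, 6 passed the 5 CPM limit only through the members. Among those with a mean of 50 CPM or more, the largest ratios after Cmpk2 were those of Rtp4 (log2 4.00), Phf11d (3.71), the giant ubiquitin ligase Rnf213 (3.68), the ADP-ribosyltransferase Parp14 (3.53), Dtx3l (3.52) and Trim30a (3.29). The kinase Eif2ak2 (PKR), which halts translation on sensing double-stranded RNA, stood at 158 and 155 CPM against 20.6 and 16.9 CPM (log2 3.07).

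The abundant effectors varied in their ratios. Ifitm3, a membrane protein that blocks viral fusion, was found in all 60 members but was also at 1348 and 1936 CPM in the rest, and stood at 2307 and 3892 CPM in the members (log2 0.93, 0.87 to 0.98). Ifitm2 was at 866 and 1205 CPM against 855 and 1081 CPM, and Ifi27 at 166 and 115 CPM against 149 and 191 CPM. Bst2 (tetherin), which holds budding virus at the cell surface, stood at 290 and 443 CPM against 73.1 and 88.2 CPM (log2 2.20). Ly6e, a surface protein that hinders viral fusion, had a log2 ratio of 1.47, Ifi27l2a of 1.94 and Slfn5 of 0.78.

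Of the nucleic acid sensors 10 of 14 measured genes were at least 2-fold higher in both libraries, beside 1.88% of all genes. Of the 14, 1 passed the 5 CPM limit only through the members. The RNA sensors were Ifih1 (MDA5, log2 3.18, in 44 members), Ddx58 (RIG-I, 2.62), Dhx58 (LGP2, 4.04) and the endosomal receptor Tlr3 (2.20). Zbp1, a sensor of left-handed nucleic acid, had a log2 ratio of 2.94, and Adar, which edits double-stranded RNA, of 2.26. Over all members Mb21d1 (cGAS) had 3 UMIs, Tmem173 (STING) 13 (log2 0.17, -0.74 to 0.95) and Mavs, the adaptor of the RNA sensors, 3. Genes of the Ifi200 cluster were abundant in both groups, with Ifi203 at 558 and 630 CPM against 125 and 121 CPM (log2 2.29). In the same cluster Mndal (2.09), Ifi211 (1.60) and Ifi207 (1.22) passed the fold limit and Ifi204 (0.97) and Ifi205 (0.48) did not, though near-identical copies of these genes may share reads.

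All 14 measured guanylate-binding proteins and immunity-related GTPases, which attack the vacuoles of intracellular pathogens, were at least 2-fold higher in both libraries. Their median log2 ratio was 3.40, and 5 of the 14 passed the 5 CPM limit only through the members. Iigp1 led at 705 and 746 CPM against 38.4 and 65.9 CPM (log2 3.76, 3.64 to 3.89) and was found in 55 members. Irgm1 (3.56), Igtp (3.52), Ifi47 (3.06), Gbp7 (2.92) and Gbp2 (2.35) were the next by UMIs, with their log2 ratios in brackets. Members of these families resemble one another closely and their reads may be shared.

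**Figure D3:**
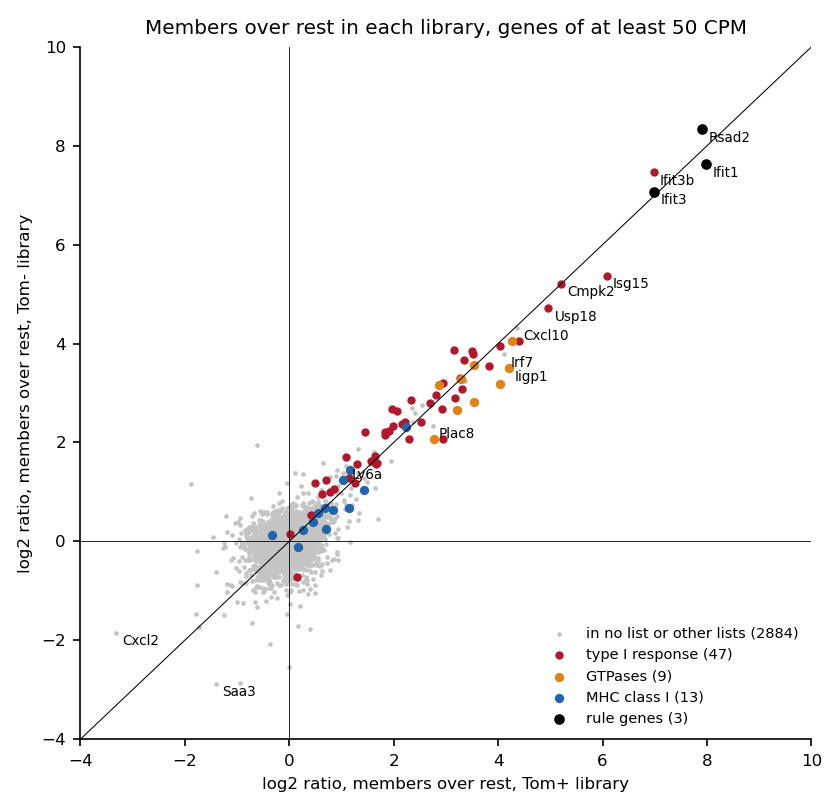
Log2 ratio of members over the rest of the gate in the Tom+ library (x axis) and in the Tom- library (y axis), 1 point per gene with a mean of at least 50 CPM; Mmp3, with 0 UMIs in the Tom- members, and the rule gene Mx1, whose mean is under that limit, are not drawn. Most type I response genes lie along the diagonal above 1, up to Isg15, Ifit3b and the other 3 rule genes, while a few, Ifitm2 and Ifi27 among them, lie near 0 with most other genes.

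Of 12 signalling genes reported here, 3 transcription factors were at least 2-fold higher in both libraries and none was lower. Irf7, the amplifier of interferon gene transcription, stood at 183 and 252 CPM against 10.6 and 18.2 CPM (log2 3.90, 3.67 to 4.13) and Stat2 at 152 and 129 CPM against 14.8 and 13.6 CPM (log2 3.30). Irf9 had a log2 ratio of 1.90 (1.48 to 2.30). Other factors, Irf2 (log2 0.64) and Irf3 (0.71), were within the fold limit. Of the kinases, Jak1 was at 443 and 335 CPM against 347 and 320 CPM and Tyk2 had 6 UMIs. Irf1, known to be induced most strongly by type II interferon, had a log2 ratio of 0.87 in Tom+ and 1.09 in Tom-. Of the feedback inhibitors, Socs1 had a log2 ratio of 0.81 and Socs3, an inhibitor of interleukin 6 family signalling, of -0.62 (-0.76 to -0.47).

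None of the 5 measured receptor genes was at least 2-fold higher, or lower, in both libraries. Ifnar2 stood at 93.1 and 92.3 CPM in the members and at 102 and 119 CPM in the rest, and Ifngr1 at 172 and 166 CPM against 174 and 215 CPM. Ifnar1, with 14 UMIs, had a log2 ratio of -0.47 (-1.34 to 0.28). No UMI of any of 21 interferon genes, of type I, II or III, was found in the members, and the whole gate held 35.

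Of 20 MHC class I pathway genes 6 were at least 2-fold higher in both libraries, none was lower, and the median log2 ratio was 0.73. Those 6 were Tap1, which carries peptides into the endoplasmic reticulum (log2 2.29), the immunoproteasome subunits Psmb8 (1.20), Psmb9 (1.37) and Psmb10 (1.16), the class I gene H2-T22 (1.34) and Nlrc5, the activator of class I genes, on 13 UMIs (2.54, 1.62 to 3.34), the 1 gene of the list that passed the 5 CPM limit only through the members. The classical molecules were near the rest, with H2-K1 at 1057 and 1277 CPM against 885 and 1091 CPM (log2 0.24), B2m at 1184 and 1136 CPM against 867 and 860 CPM (0.42) and H2-D1 at 976 and 1083 CPM against 872 and 1174 CPM (-0.01). Tapbp, which loads peptides, had a log2 ratio of 0.57, H2-T23 of 0.71 and Psme2 of 0.68. Class II genes were scarce in the members, with 2 UMIs of Cd74 and none of H2-Aa or of Ciita, their activator. All 4 measured class II genes were at least 2-fold lower than in the rest, but 83.1% of the rest's class II UMIs lay in 236 cells of the gate led by Lyz2, C1qa and Cd74, a cluster without members that also held 89.5% of the rest's macrophage marker UMIs. Without that cluster the 7 listed class II genes summed to 5.64 and 11.5 CPM in the members against 16.6 and 23.9 CPM in the rest, on 7 UMIs where 16.2 would match the rest (log2 -1.21, -2.53 to -0.17). Cd74 alone then stood at 2.82 and 2.31 CPM, 1 UMI in each library, against 3.59 and 5.32 CPM.

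Cxcl10, which draws T cells through Cxcr3, was spread unevenly over the members. It stood at 688 and 1427 CPM in the members against 33.3 and 71.6 CPM in the rest (log2 4.33, 4.23 to 4.44). All 862 UMIs lay in 22 members, 9 of 22 in Tom+ and 13 of 38 in Tom-, and 1 Tom- member held 274 of them. Without that cell the log2 ratio was 3.81. Isg15, by comparison, had no UMI in 4 members and its highest cell had 73 of 780 UMIs. Cxcl9, a ligand of the same receptor, had 4 UMIs in the members and was lower than in the rest (5.64 and 4.62 CPM against 12.6 and 28.2 CPM), and Ccl5 had none. That rest includes the cluster led by Lyz2, and no Cxcl9 value without the cluster is given here.

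**Figure D4:**
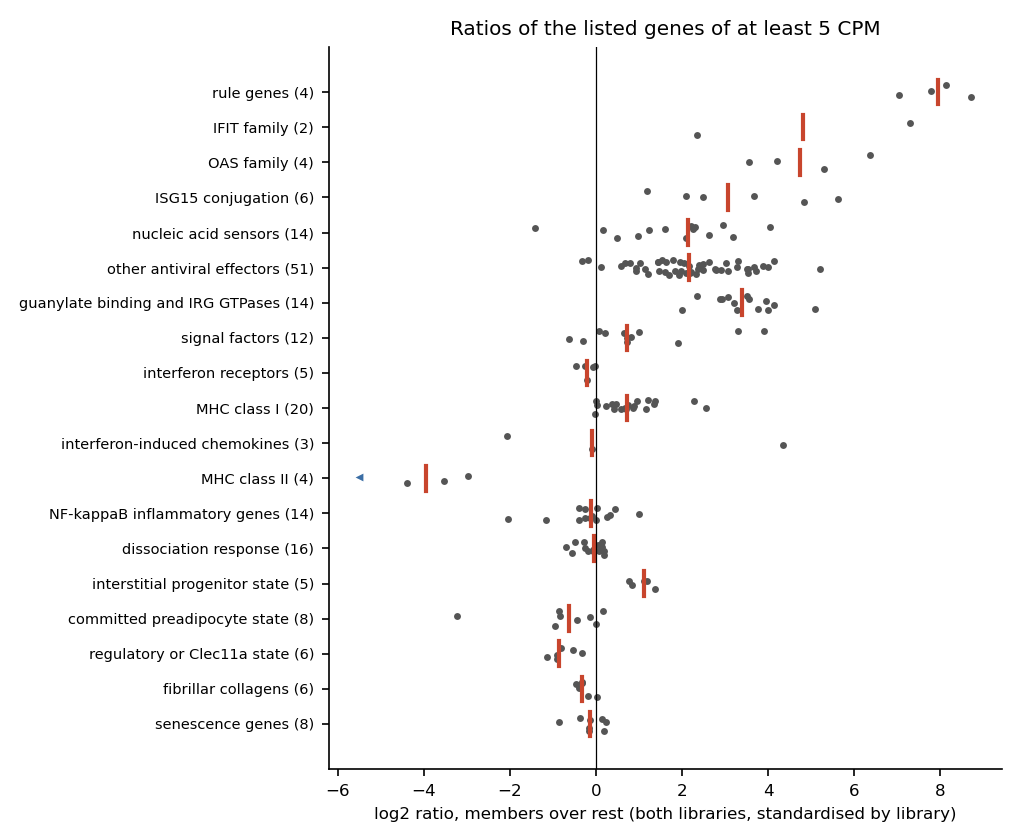
Log2 ratio of members over the rest of the gate for the listed genes reported here with a mean of at least 5 CPM (grey points, number of genes in brackets, red bar the median), with a blue triangle at the left for a gene without UMIs in the members. The rule genes, which chose the cells, and the medians of the antiviral lists lie above 0, the medians of the receptors, dissociation genes and collagens near 0, and that of the MHC class II genes, whose UMIs in the rest lie mostly in 1 cluster without members, below.

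The inflammatory genes of the NF-kappaB pathway lay near the rest. Their median log2 ratio was -0.11, with none of 14 genes at least 2-fold higher in both libraries and 1 lower, Cxcl2 (log2 -2.05). Cxcl1 stood at 1847 and 4825 CPM against 2028 and 5080 CPM, and Il6 had a log2 ratio of 0.01. Ccl2, the chemokine that draws monocytes, had a log2 ratio of 0.997, but 636 of its 1970 UMIs came from 1 Tom- member and without that cell the ratio was 0.47. Ccl7, a related chemokine, had a log2 ratio of 0.44, and of 0.11 without its highest cell. The immediate early and heat shock genes of the dissociation response had a median log2 ratio of -0.06, with Fos at 5298 and 7724 CPM against 6096 and 6743 CPM.

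At a mean of at least 50 CPM, 75 of 2955 genes (2.54%) were at least 2-fold higher in both libraries and 56 of these were in one of the interferon lists. The limit is on the mean of members and rest, and 47 of the 75 were under 50 CPM in the rest, so they passed only through the members. Of the 16 in no list, Plac8 stood at 515 CPM against 89.2 CPM (log2 2.53), AW112010 at 423 against 125 CPM (1.76) and Samd9l, an antiviral translation inhibitor, at 188 against 35.8 CPM (2.39). Sp110 had a log2 ratio of 2.46 and Nampt, the rate-limiting enzyme of the NAD salvage pathway, of 1.62. Under that level, Cd274 (PD-L1), an interferon-induced brake on T cells, had 43 UMIs in 17 members (log2 3.59).

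At this level 7 genes (0.237%) were at least 2-fold lower in both libraries, 6 of which passed only through the rest. The acute phase gene Saa3 stood at 42.3 and 18.5 CPM against 112 and 136 CPM (log2 -2.10), and the nuclear receptor Nr4a2 at 64.9 and 134 CPM against 224 and 373 CPM (-1.57). Timp1, an inhibitor of matrix proteases, had a log2 ratio of -1.40, Tmem176a of -1.73 and the ubiquitin ligase subunit Fbxo33 of -1.08. Mmp3, with 10 UMIs in 2 members, and Cxcl2, with 17 of its 23 UMIs in 1 member, complete the group. Mgp, Serpina3n, Tmem176b, Mmp11, Ctla2a, Palld, Rnf217 and Emilin1 had negative ratios in both libraries but were within the fold limit in at least 1.

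The members carried the stromal markers of progenitors. Dcn and Ly6a were found in all 60 members, Col1a1 in 60, Pdgfra in 54 and Cd34 in 53. Over the 8 listed progenitor identity genes the median log2 ratio was -0.25. In both libraries 5 of them had negative and 2 had positive ratios. Pdgfra stood at 372 and 307 CPM against 375 and 291 CPM (log2 0.03, -0.15 to 0.21). Ly6a (Sca-1), a surface antigen of progenitors that is itself known to respond to interferon, stood at 2820 and 4109 CPM against 1333 and 1431 CPM (log2 1.35, 1.29 to 1.40). The fibrillar collagens Col3a1 (log2 -0.48), Col1a1 (-0.39) and Col1a2 (-0.32) were slightly lower. Pcna apart, the proliferation genes had 0 to 3 UMIs each.

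Markers of the interstitial progenitor state were higher in the members. All 5 had ratios above 1 in both libraries, as had 24.8% of all genes tested, and 2 of them, Pi16 and Cd55, were at least 2-fold higher, beside 1.88% of all genes. The secreted protein Pi16 was at 352 and 519 CPM against 155 and 247 CPM (log2 1.11), the complement inhibitor Cd55 at 510 and 579 CPM against 205 and 221 CPM (1.36) and the peptidase Dpp4 at 127 and 143 CPM against 67.7 and 52.6 CPM (1.19). Pi16 had a UMI in 32 of the 60 members, at a median of 0.5 UMIs per member in Tom+ and 1 in Tom-. At such counts a member without a UMI may still have expressed it. The committed preadipocyte gene Fabp4 stood at 688 and 568 CPM against 1223 and 1015 CPM (-0.83), and Mgp, of the regulatory state, at 632 and 727 CPM against 1259 and 1713 CPM (-1.14). Has1, a hyaluronan synthase of the inflammatory stromal state, had a log2 ratio of 0.68, with 1 of 5 genes of that state, Cxcl13, at least 2-fold lower in both libraries. Of 11 TGF-beta response genes none was at least 2-fold higher and 1, Ctgf, was lower (log2 -1.64, 16 UMIs), while the receptor Tgfbr2 stood at 234 and 256 CPM against 170 and 148 CPM (0.64).

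To see where these cells lay among the other progenitors, the gate was clustered without 282 interferon-response and member-high genes. The members fell into 7 of 9 clusters. Cluster 1, led by Efhd1, Nov and Pi16, held 20 of them among 1209 cells (1.65%, 1.01 to 2.54%), and cluster 2, led by Chchd10, Sox4 and Mmp11, held 18 among 1239 (1.45%, 0.863 to 2.29%). In cluster 5, led by 6030408B16Rik and Thbd, 6 of 1590 cells were members (0.377%, 0.139 to 0.820%). In cluster 1 members were 6 of 433 Tom+ cells (1.39%) and 14 of 776 Tom- cells (1.80%), and in cluster 2 they were 10 of 962 (1.04%) and 8 of 277 (2.89%), so the order of the 2 clusters was not the same in both libraries. Cluster 8, of 236 cells led by Lyz2 and C1qa, held 0 members, which allows a share of up to 1.27% by 3 counts of the total and 1.55% by the exact interval.

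**Figure D5:**
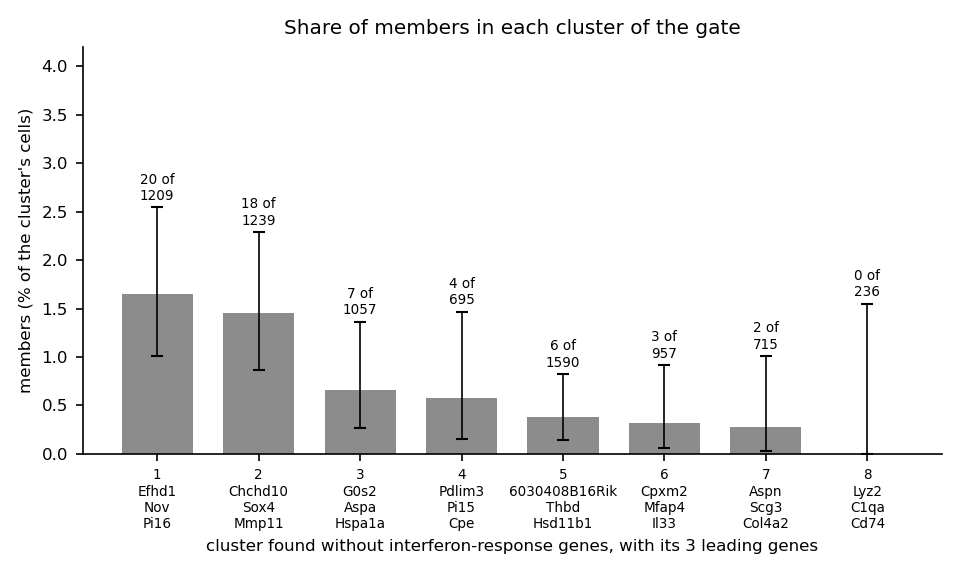
Members as a share of each cluster's cells (bars, with exact 95% intervals of counting error and the number of members and cells), for clusters found without interferon-response genes; cluster 9, of 25 cells and 0 members, is not drawn. Clusters 1 and 2 hold 38 of the 60 members, and the other 5 clusters with members have shares between 0.280 and 0.662%.

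When the rest of the gate was weighted to the members' make-up over these clusters, the state genes came closer to the rest. The log2 ratio of Pi16 went from 1.11 to 0.30, of Dpp4 from 1.19 to 0.41, of Cd55 from 1.36 to 0.63 and of Mgp from -1.14 to -0.34. Of the 7 lower genes, 4 came within 2-fold over both libraries, namely Timp1 (-1.40 to -0.65), Tmem176a (-1.73 to -0.73), Nr4a2 (-1.57 to -0.96) and Fbxo33 (-1.08 to -0.84). Saa3 (-1.22), Mmp3 (-2.14) and Cxcl2 (-1.79) stayed past it. Those of Isg15 (5.63 to 5.67), Cxcl10 (4.33 to 4.67) and Iigp1 (3.76 to 3.74) stayed, and Ly6a went from 1.35 to 1.10. The clusters were built on the state genes themselves.

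Strength of response varied within the members, in an order that the score itself set for the 4 selecting genes. For genes outside the score, Isg15 stood at 1867 CPM at ranks 1 to 20, 623 CPM at ranks 21 to 40, 430 CPM at ranks 41 to 60, 198 CPM at ranks 61 to 120 and 18.6 CPM beyond. Iigp1 stood at 1467, 410, 265, 260 and 51.8 CPM in the same bands. Cxcl10 went from 2759 to 413 and 12.4 CPM within the members and stood at 358 CPM at ranks 61 to 120. Ly6a was about level within the members (3789, 3291 and 3510 CPM), as was Pi16 (433, 486 and 409 CPM), and Ifnar2 was level throughout (96.3, 94.2, 86.8, 100 and 111 CPM). Of the rest of the gate, 24 cells reached the members' median share of UMIs from the 110 further genes (1.78%), and 12 of these had no UMI of a selecting gene.

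The members occurred in both sorts at shares whose intervals overlapped. They made up 0.712% of the Tom+ gate (0.447 to 1.08%) and 0.820% of the Tom- gate (0.581 to 1.12%), and the Tom+ share of the members was 36.7% (24.6 to 50.1%) beside 40.02% of the gate. The tdTomato transcript stood at 324 CPM in Tom+ members against 150 CPM in the rest, but 48 and 58 UMIs of the 122 in both libraries came from 2 cells. It was found in 6 of 22 Tom+ members (27.3%, 10.7 to 50.2%) and in 777 of 3069 other Tom+ cells (25.3%). Without the highest cell its log2 ratio over both libraries went from 1.05 to 0.19, with the second of these cells still counted. The other Tom+ members with the transcript held 1 to 3 UMIs each, so the higher level rested on these 2 cells. Cdkn2a had 1 UMI in the members, and Cdkn1a (p21), the other cell cycle inhibitor of senescence, stood at 169 and 143 CPM against 274 and 284 CPM (log2 -0.85, -1.12 to -0.59).

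Most markers of other cells were at or near 0. Of 7 macrophage markers 3 (Adgre1, Csf1r, C1qb) had no UMI and Cd68 led with 10, and the list summed to 22.8 CPM against 137 CPM in the rest. Without the cluster led by Lyz2 it summed to 33.8 CPM in Tom+ members and 13.9 CPM in Tom- members, on 18 UMIs, against 17.2 and 12.9 CPM. Siglech, of plasmacytoid dendritic cells, had none, and Ptprc (CD45) had 1 UMI, while Bst2, on the list of the same cells, is an interferon-response gene and was higher as given above. The pericyte marker Rgs5 had none, Acta2 had 2 UMIs and Myh11 had 39 (49.5 CPM against 33.9 CPM). The 4 Schwann cell markers had 0 to 2 UMIs each, and the mesothelial markers, which the gate limits, 0 to 5. Of 5 T or NK cell markers 4 had none, as had 3 of 4 endothelial markers and all 4 of mature adipocytes. Igkc stood at 493 and 192 CPM in the members and at 518 and 175 CPM in the rest, a level shared by both groups of each library. As interferon-response genes can be made by any cell, no cell type that should lack them was at hand as a background for the levels.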

How the data were processed

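The authors aligned the reads of 2 droplet libraries to mm10 with Cell Ranger 3.0.2, and deposited the unnormalised UMI counts of 31054 genes in each cell. The libraries held 61119807 (Tom+) and 96872394 (Tom-) UMIs in 5566 and 11838 barcodes, of which 3524 and 6717 passed the study's limits on genes and mitochondrial UMIs. The paper states lower counts of progenitors selected after its quality control, so these are not its own sets of cells.

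The members, gene lists and comparisons were chosen with earlier results of these data known. Counts of members and of the rest were summed per library and divided by the summed UMIs. A ratio over both libraries is the members' count over that expected from the rest of their own library, with an exact conditional 95% interval. Shares have exact Clopper-Pearson intervals. Genes were called, from a mean of 5 CPM upward, when at least 2-fold higher, or lower, in both libraries. Named genes were the selecting genes, up to 6 genes with the most UMIs of each interferon list (3 of other lists), signalling genes by role, and the 25 largest and 15 smallest ratios at 50 CPM or more by the less extreme library. Plac8, AW112010, Samd9l, Cd274, Sp110, Nampt and a few low members of lists were picked after their values were seen. A few listed genes are not reported here.

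Clusters used scanpy 1.11.5 (2000 variable genes, 30 components, Leiden resolution 0.5). Scrublet marked 2 Tom+ and 122 Tom- cells as doublets, 17 in the gate and 0 among the members. In Tom+ that is too few for the caller to have worked. None was removed. The fold rule was run on simulated counts of genes of at least 50 CPM in the rest, with changes of 4-fold. The interval was also run on simulated counts. Neither simulation held a spread between cells, and changes of 2-fold or genes under 50 CPM were not tried for the fold rule. Gene coordinates are GENCODE vM21 (GRCm38) and promoters RefSeq. No paired analysis was possible because each sort is 1 library.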

Additional observations from a re-analysis of the deposited data

Results flagged for a closer look

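Cells outside the gate also reached the lowest member's score. Of the cells left out as mesothelial, 8 of 261 in Tom+ (3.07%, 1.33 to 5.95%) and 79 of 1917 in Tom- (4.12%, 3.28 to 5.11%) did so, with the highest score at 3.25, against 0.712 and 0.820% of the gate. The median mesothelial cell was deeper, at 17891 and 14678 UMIs, and the part of depth or cell type in the higher share was not tested. Among cells left out for Calca and Ncam1, 1 Tom- cell reached it, and among immunoglobulin-rich cells none of 211. Of the barcodes that failed the quality limits, 20 of 2042 in Tom+ and 54 of 5121 in Tom- reached it. The median depth of all the failed barcodes was 661 and 690 UMIs.

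Fos, Atf3 and Cxcl14 had counting intervals on opposite sides of 0 in the 2 libraries, and the difference was not tested over replicates. Fos had a log2 ratio of -0.20 in Tom+ and 0.20 in Tom-, and Atf3 of -0.22 and 0.40. Cxcl14 had 0 UMIs in the Tom+ members and a log2 ratio of 0.58 in Tom-, where its 48 UMIs lay in 4 members.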

How the results depend on the processing

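The median log2 ratio of the type I response list, 2.23, was 2.70 with 30 members and 1.84 with 120, and lay between 2.05 and 2.34 in its other alternatives. The count of genes at least 2-fold higher in both libraries, 182, was 108 at 20 CPM, 75 at 50 CPM and 74 at a 4-fold limit. The count of lower genes, 153, was 321 with 30 members, 46 with 120, 21 at 20 CPM, 7 at 50 CPM and 34 at 4-fold, so most lower calls were genes under 20 CPM. Neither list median changed direction in the alternatives run. Without the cluster led by Lyz2 the macrophage marker sum turned from lower to higher in the members, by a log2 ratio of 0.62 (-0.13 to 1.29). The Tom+ share of members (29.2 to 36.7%) and the MHC class I median (0.57 to 1.03) stayed within their counting intervals. The 50 CPM limit, the weighting by cluster, the removal of shared barcodes and that of the cluster led by Lyz2 were chosen after seeing the data. Without the 340 gate cells whose barcode was also listed in the other library, the Tom+ share was 31.7%, the type I median 2.25 and the MHC class I median 0.60, with 170 genes higher and 165 lower. Of the 60 members, 50 were kept with cells thinned to 7181 UMIs, 51 with mitochondrial UMIs under 5% and 55 with the summed score. With 1 library per sort no spread between animals is known.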
